A study of Mus musculus with 13 samples.

Results

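Chromosomes are folded and held together by ring-shaped complexes built on pairs of SMC (structural maintenance of chromosomes) ATPases. The 10 genes described here encode the subunits of condensin and the acetyltransferases of the related complex, cohesin. They were taken by symbol from the 16382 genes of the deposited RNA-seq tables, all 10 were found there, and all 10 passed the filter on low counts. The group was chosen with measured values in view, because Smc2 and Esco2 were clearly higher after treatment with palmitoylethanolamide (PEA), an endogenous fatty acid amide. The differences between PEA and control are therefore given for these genes as a description, and their calls in the fit over all genes are counted but not read as a test of the group.

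The cells were C2C12 myotubes, the multinucleated muscle fibres formed when this mouse myoblast line fuses in low-serum medium, with wild-type genotype in both groups. On day 8 of differentiation, 6 wells received vehicle (DMSO), labelled CON, and 6 received PEA at 10 μM. RNA was extracted 24 h later, and 1 library was analysed per well. The methods describe technical duplicate wells within each repeat, so each group held fewer independent repeats than libraries. No label ties a library to its repeat, so the errors and p-values measure only the spread between these libraries and may be too small.

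Condensin compacts and stiffens chromosomes for cell division. Both forms of the complex contain the ATPases SMC2 and SMC4. Condensin I adds the kleisin NCAPH, which closes the ring, and the HEAT-repeat proteins NCAPD2 and NCAPG, and it reaches the chromosomes once the nuclear envelope has broken down. Condensin II adds the kleisin NCAPH2 with NCAPD3 and NCAPG2, is in the nucleus throughout the cell cycle, and also takes part in the folding of interphase chromosomes. Cohesin holds sister chromatids together after replication, and this requires that its SMC3 subunit be acetylated. ESCO2 carries out that step during S phase, while ESCO1 acetylates cohesin throughout the cell cycle. Myotube nuclei have left the cell cycle, and cultures of this line also keep mononucleated cells.

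The libraries held between 12354845 and 50397444 estimated counts, with CON replicate 1 at 2.25 times the total that came second. The values below are normalized counts, the estimated counts divided by 1 factor per library. The labelled cell type was checked on marker lists. All 8 myotube genes were detected, with summed normalized counts of 103237 ± 16622 in CON and 88523 ± 5874 in PEA (SD, n = 6 each); 3 of the 8 (Myh8, Tnnt3 and Mymx) were lower in PEA at an adjusted p below the threshold of 0.05 in the edgeR quasi-likelihood test, and none was higher. Genes of myoblasts and reserve cells summed to 10686 ± 528 and 10137 ± 297 (1 of 8, Id3, lower), and genes of fibroblasts to 80946 ± 9309.5 and 79918 ± 3983 (Col1a2 and Dcn, 2 of 7 tested, higher; Thy1 was too low to test). Single genes dominated these last sums, Sdc4 at 7085 in CON and 6711 in PEA and Col3a1 at 63333 and 58320.2. Of the 7 fibroblast genes tested, 5 had a positive log2 fold change (median 0.23). Beside these counts, 11.0% of all genes tested differed in either direction and 6.31% were higher. Ptprc, Pecam1 and Cdh5, which mark leukocytes and endothelium, together reached at most 7.30 normalized counts in a CON library and 11.2 in a PEA library, and Cd3e, Adgre1 and Epcam were not analysed here.

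The libraries also differed in genes of cycling cells. The sum of 8 such genes was 7467 ± 1184 normalized counts in CON (6427 to 9788) and 11035 ± 749.7 in PEA (10035 to 11987), so the sums did not overlap. Of the 8, 6 rose (Mki67, Top2a, Ccnb1, Ccna2, Cdk1 and Cdc20), beside 6.31% of all genes tested. In 2 of the 8 (Top2a and Ccna2) all PEA libraries lay above all CON libraries, as in 2.53% of all genes. The call of Ccnb1 was lost without CON replicate 6, PEA replicate 2 or PEA replicate 6 (edgeR adjusted p from 0.0502 to 0.0558). CON replicate 2 had the highest sum of the CON libraries and PEA replicate 4 the lowest of the PEA libraries. The difference in genes of cycling cells ran in the same direction as those of Esco2 and the condensin genes other than Ncaph2 below. Its part in them was not tested. In RNA from a whole culture, more cells that express a gene and more RNA of it per cell cannot be told apart.

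The promoters of 7 of the 10 genes are in the RefSeq promoter table used here (GRCm38.p6), as windows of 300 bases, 250 before and 50 after the annotated start. Smc4, Esco1 and Esco2 were not matched. They were searched on both strands for the CHR (cell cycle genes homology region) element, TTTGAA, the CCAAT box, and the E2F words TTTGGCGC, TTTCGCGC, TTTCCCGC and TTTGCCGC, all of which are associated with transcription in the cell cycle. None of these words overlapped another in the windows shown. The windows of Smc2, Ncapg, Ncaph and Ncapg2 are shown because these genes were higher in every PEA library than in any CON library, and that of Ncaph2 because its level differed little; capitals mark the matched words, and sequences run 5′ to 3′ on the transcribed strand.
Smc2 (chr4:52438971-52439270, plus strand): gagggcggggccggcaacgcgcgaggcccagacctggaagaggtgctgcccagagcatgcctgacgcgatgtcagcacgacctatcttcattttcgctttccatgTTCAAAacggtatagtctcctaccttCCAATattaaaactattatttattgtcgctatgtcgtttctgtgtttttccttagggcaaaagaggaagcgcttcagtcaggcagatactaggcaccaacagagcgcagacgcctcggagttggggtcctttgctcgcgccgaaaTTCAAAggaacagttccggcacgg
Ncapg (chr5:45669675-45669974, plus strand): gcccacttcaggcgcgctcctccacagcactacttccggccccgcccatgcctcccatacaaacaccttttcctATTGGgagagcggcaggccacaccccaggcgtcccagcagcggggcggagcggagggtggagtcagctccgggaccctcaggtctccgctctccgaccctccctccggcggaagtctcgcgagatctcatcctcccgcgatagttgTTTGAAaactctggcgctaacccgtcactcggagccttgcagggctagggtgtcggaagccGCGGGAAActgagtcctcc
Ncaph (chr2:127133905-127134204, minus strand): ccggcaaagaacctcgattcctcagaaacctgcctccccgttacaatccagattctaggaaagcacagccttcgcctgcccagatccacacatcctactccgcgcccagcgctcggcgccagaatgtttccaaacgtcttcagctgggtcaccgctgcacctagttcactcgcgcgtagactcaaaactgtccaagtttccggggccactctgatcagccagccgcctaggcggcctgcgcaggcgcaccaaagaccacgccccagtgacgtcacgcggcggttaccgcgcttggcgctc
Ncapg2 (chr12:116405186-116405485, plus strand): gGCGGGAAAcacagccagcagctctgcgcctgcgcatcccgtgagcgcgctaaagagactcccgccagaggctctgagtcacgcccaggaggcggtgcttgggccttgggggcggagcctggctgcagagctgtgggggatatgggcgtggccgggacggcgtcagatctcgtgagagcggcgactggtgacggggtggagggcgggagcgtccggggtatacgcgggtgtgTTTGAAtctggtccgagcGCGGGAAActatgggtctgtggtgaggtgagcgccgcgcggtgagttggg
Ncaph2 (chr15:89355469-89355768, plus strand): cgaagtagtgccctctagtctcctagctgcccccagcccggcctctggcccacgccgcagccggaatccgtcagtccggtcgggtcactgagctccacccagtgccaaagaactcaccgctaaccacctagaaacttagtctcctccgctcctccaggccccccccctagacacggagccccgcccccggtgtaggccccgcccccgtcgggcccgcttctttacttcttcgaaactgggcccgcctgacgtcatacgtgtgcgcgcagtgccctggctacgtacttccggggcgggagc

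Ncapd3 has 2 windows in the table and the other genes 1. The CHR word lay in the first windows of 4 of the 7 genes, Smc2, Ncapd2, Ncapg and Ncapg2, in the second window of Ncapd3, where it began 249 bases upstream, and in 17.9% of all 32851 windows of the table. In the first windows it began 30 bases upstream of the start in Ncapg and 18 bases upstream in Ncapg2, while in Smc2 it lay 145 bases upstream and again at base 27 of the transcript, and in Ncapd2 123 bases upstream. An E2F word was found in 3 genes, at 8 bases upstream in Ncapd2, at base 32 of the transcript in Ncapg, and 249 bases upstream and at base 1 of the transcript in Ncapg2, against 2.26% of all windows. The CCAAT word was in 3 genes, Smc2, Ncapd2 and Ncapg, against 37.4% of all windows. The windows of Ncaph and Ncaph2 and the first window of Ncapd3 held none of these words. A match is a run of letters, not a measured site.

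Smc2, the first of the ATPases common to both condensins, lies on chromosome 4 at 52439214 to 52488264, plus strand, in GRCm39 (ENSMUSG00000028312). In CON its lowest, median and highest values were 542, 619.8 and 678 normalized counts, and in PEA they were 838, 885 and 977. Every PEA library was above every CON library, and the values within each group lay close together. The means were 612 ± 45.1 and 899 ± 62.7 (SD, n = 6 each), a log2 fold change of 0.55 with a standard error (SE) of 0.06, or 1.47-fold. Its partner Smc4 (chromosome 3, 68911944 to 68941960, plus strand) ran from 1178 through a median of 1249.6 to 1498 in CON, and from 1409 through 1665 to 1784 in PEA. Here 5 of the 6 PEA libraries lay above all CON libraries, and the exception was PEA replicate 2, which CON replicate 2 exceeded. The log2 fold change was 0.35 (SE 0.06), 1.28-fold, the smaller of the pair.

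**Figure D1:**
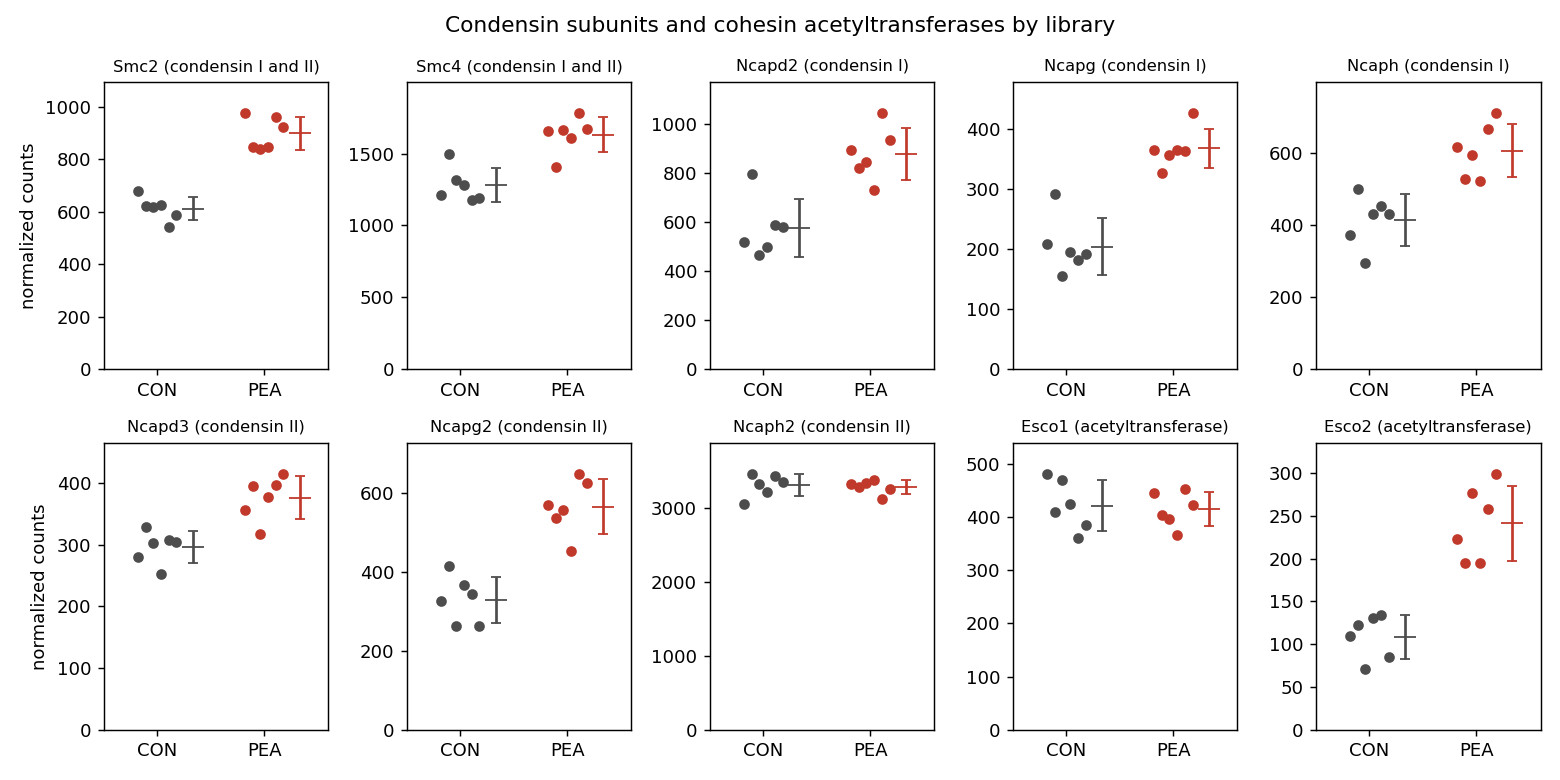
Normalized counts (vertical axis, from 0, a separate scale for each gene) of the 10 genes in the 6 CON libraries (grey points, in replicate order) and the 6 PEA libraries (red points); horizontal bars and whiskers give the mean and SD. The groups are apart for Smc2, Ncapg, Ncaph, Ncapg2 and Esco2, touch through single libraries for Smc4, Ncapd2 and Ncapd3, and lie on the same level for Ncaph2 and Esco1.

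The subunits of condensin I alone were higher in PEA throughout, with a mean log2 fold change of 0.68 over the 3 genes. Ncapg, a HEAT-repeat subunit (chromosome 5, 45827150 to 45859062, plus strand), had a lowest, median and highest value of 154, 193 and 292 normalized counts in CON and of 327, 364 and 426 in PEA. The groups did not overlap, and its means of 203 ± 47.0 and 367 ± 32.5 gave a log2 fold change of 0.85 (SE 0.12), 1.80-fold. This was the largest difference of the condensin genes. Ncapd2, the other HEAT-repeat subunit (chromosome 6, 125144962 to 125169080, minus strand), ran from 467 through 549 to 798 in CON and from 731 through 869 to 1045 in PEA. The upper CON value was CON replicate 2, while the other CON libraries reached 586 at most, below all 6 PEA libraries. The log2 fold change of Ncapd2 was 0.62 (SE 0.11), 1.54-fold. Ncaph, the kleisin (chromosome 2, 126945729 to 126975874, minus strand), had values of 295, 431 and 502 in CON and of 524, 606 and 712 in PEA. Again no CON library reached the lowest PEA library, and the log2 fold change was 0.56 (SE 0.11), 1.48-fold.

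Of the subunits of condensin II alone, Ncapg2 and Ncapd3 were higher in PEA and Ncaph2 was not, and their mean log2 fold change was 0.38. Ncapg2, the counterpart of Ncapg (chromosome 12, 116368940 to 116427351, plus strand), had values of 263, 334 and 414 in CON and of 454, 564 and 649 in PEA. The groups were apart, and the log2 fold change of 0.79 (SE 0.11), 1.72-fold, was close to that of Ncapg. Ncapd3, the counterpart of Ncapd2 (chromosome 9, 26941456 to 27006626, plus strand), ran from 253 through 303 to 329 in CON and from 318 through 387 to 415 in PEA. PEA replicate 3 lay below CON replicate 2, and the other 5 PEA libraries lay above all CON libraries, with a log2 fold change of 0.35 (SE 0.08), 1.28-fold. Ncaph2, the kleisin of condensin II (chromosome 15, 89239895 to 89257056, plus strand), had values of 3052, 3342 and 3461 in CON and of 3121, 3306 and 3382 in PEA. The ranges lay almost on top of each other, and the log2 fold change was -0.01 (SE 0.04).

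The log2 fold changes of the cohesin acetyltransferases lay farther apart than those of any pair of condensin subunits. Esco2, the S-phase enzyme (chromosome 14, 66055821 to 66071443, minus strand, ENSMUSG00000022034), had values of 71.0, 116 and 134 normalized counts in CON and of 195, 240.3 and 299 in PEA. No CON library came near the lowest PEA libraries, replicates 2 and 4, and the means were 109 ± 25.8 and 241 ± 43.6. The log2 fold change was 1.16 (SE 0.16), 2.24-fold, the largest of the 10 genes, and it rested on 69.0 to 355 estimated counts per library, the fewest of the 10. Esco1 (chromosome 18, minus strand) had values of 360.4, 417 and 482 in CON and of 367, 414 and 453 in PEA. Its groups overlapped throughout, with a log2 fold change of -0.03 (SE 0.08).

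Of the 10 genes, 8 were higher in PEA at an adjusted p below 0.05 (edgeR quasi-likelihood test, adjusted over 13142 genes) and 0 were lower, also at an unadjusted p below 0.05 and in DESeq2 and limma-voom. Of all genes tested, 6.31% were higher by the same rule and 11.0% differed in either direction. Since the group was chosen on this contrast, nothing is read from that count. The median log2 fold change was 0.56 over the 10 genes and 0.01 over all genes. In 5 of the 10 (Smc2, Ncapg, Ncaph, Ncapg2 and Esco2) all PEA libraries lay above all CON libraries, as in 2.53% of all genes. CON replicate 2 was the highest CON library in 7 of the 10 genes. Without it the count was 8 of 10, beside 5.52% of all genes, a comparison added after the values had been seen.

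**Figure D2:**
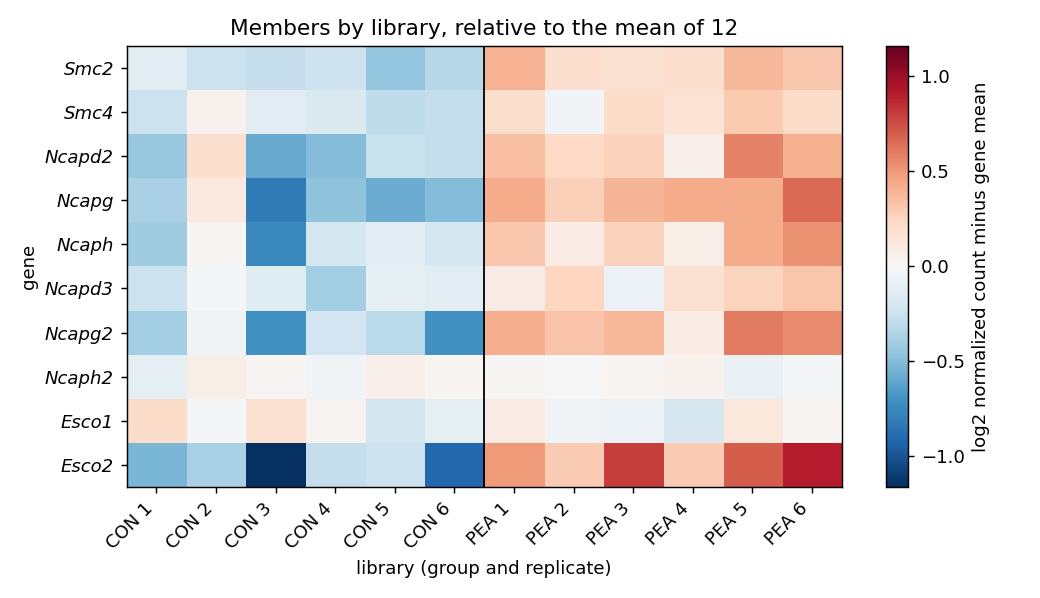
Log2 normalized count of each gene (rows) in each library (columns, CON left of the line and PEA right), minus the mean of that gene over the 12 libraries; red is above and blue below the mean. The CON side is mostly blue and the PEA side mostly red for 8 genes. Exceptions are CON replicate 2, which is pale or red in several of them, PEA replicate 2 in Smc4 and PEA replicate 3 in Ncapd3, and the rows of Ncaph2 and Esco1 are pale throughout.

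The genes also differed in how they varied between libraries of the same group. After the mean of each group had been removed from log2 CPM (counts scaled to library size), the 45 pairs of genes were compared over the 12 libraries by Pearson's r, as a description. The libraries share their depth and scaling between all genes, and by the methods duplicate wells of the same repeat are among them. Which libraries these are is not given, so r was not corrected for it. Ncapd2, Ncapg, Ncaph and Ncapg2 varied together, with r from 0.67 to 0.80 over their 6 pairs, and r from 0.27 to 0.81 when the 2 libraries farthest from the median of the first gene were left out. Esco2 varied with Ncapg2 (r = 0.83, Spearman's rho = 0.73, r = 0.86 without the 2 libraries) and with Ncaph (r = 0.79, rho = 0.71, r = 0.56). Smc2 had r between 0.06 and 0.33 with Ncapd2, Ncapg, Ncaph and Ncapg2 (rho from 0.13 to 0.52). Without the 2 libraries farthest from the median of Smc2, r was from 0.20 to 0.54. That range overlaps the one within the set, so Smc2 was not clearly separate from it. Among the 10 genes the highest value of Smc2 was with Esco1 (r = 0.87, rho = 0.83, r = 0.76). Among all other tested genes, those most like Smc2 were Baz1a (r = 0.94), Gm6640 (0.86), and Rab9, Smarcad1 and Taf9b (0.85 each), none of which passed the test between CON and PEA. Those most like Esco2 were Snai2 (r = 0.93), Chd2 (0.91), Klhl5 (0.90), and Adh1 and Crybg2 (0.89 each), of which Snai2 rose with PEA (log2 fold change 0.25) and the others did not pass the test.

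Levels of different genes were compared per kilobase (kb) of annotated exon. In CON the order, as mean normalized counts per kb ± SD over 6 libraries, was Ncaph2 (591 ± 27.0), Smc4 (198 ± 18.4), Smc2 (108 ± 7.95), Ncaph (83.8 ± 14.5), Ncapd2 (72.3 ± 15.0), Esco1 (53.8 ± 6.07), Ncapd3 (36.2 ± 3.24), Ncapg2 (32.3 ± 5.80), Ncapg (24.0 ± 5.55) and Esco2 (12.9 ± 3.07). The ranges of the neighbours Smc2 and Ncaph, Ncaph and Ncapd2, Ncapd2 and Esco1, Ncapd3 and Ncapg2, and Ncapg2 and Ncapg overlapped, and those of the other neighbours did not. Ncaph2 stood 2.99-fold above Smc4, the next gene. Of its annotated exon bases, 67.8% (3793 bases) also lie in exons of Tymp and Sco2 on the other strand, and the sources used here do not say that strand was kept in counting, so reads of these genes cannot be told apart. Tymp itself stood at 48.3 normalized counts in CON against 43.8 in PEA, and Sco2 was not analysed here. The other overlaps were smaller: 25.0% of exon bases in Ncapg (with Lcorl), 10.4% in Smc2 (with Smc2os), 9.38% and 5.72% in Ncapd3 (with Jam3 and Vps26b) and 3.99% in Ncapd2 (with Mrpl51). Apart from Lcorl and Smc2os, these neighbours had more normalized counts in CON than the gene they overlap. Mrpl51 stood at 1319 normalized counts in CON and 1227 in PEA, Vps26b at 1303 and 1340.1, Jam3 at 405 and 404, and Lcorl at 192 and 215, while Smc2os stood at 1.1 and 1.6. Reads of these pairs cannot be told apart either, in the levels and in the ratios of the subunits.

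Counterparts in the complexes were then compared within each CON library, which did not use the contrast that chose the genes. In each of the 5 pairs all 6 CON libraries lay on the same side of an equal level. Ncapd2 was 1.97-fold above Ncapd3 (log2 ratio per kb 0.98 ± 0.21, from 0.67 to 1.32). In the remaining pairs the first gene was the lower. Ncapg stood at a log2 ratio of -0.44 ± 0.20 to Ncapg2, which was 1.35-fold higher. Ncaph stood at -2.84 ± 0.25 to Ncaph2, which was 7.14-fold higher. Smc2 stood at -0.87 ± 0.14 to Smc4, which was 1.83-fold higher, and Esco2 at -2.08 ± 0.46 to Esco1, which was 4.24-fold higher. Each pair gave p = 0.0312 in a two-sided exact sign-flip permutation test, also after adjustment over the 5 pairs, and 0.03125 is the smallest p that 6 libraries can give. On this measure per kb, the condensin I gene was the higher of its pair for the NCAPD subunits. It was the lower for the NCAPG and NCAPH subunits.

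**Figure D3:**
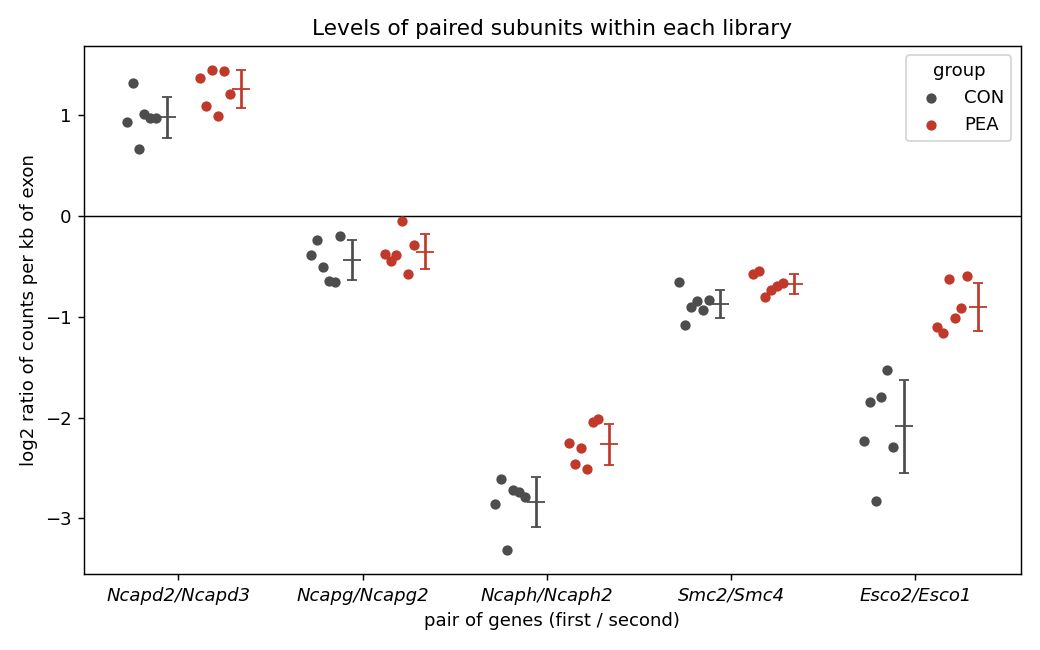
Log2 ratio of normalized counts per kb of exon between the first and second gene of each pair, in each CON (grey) and PEA (red) library; the line at 0 is an equal level, and bars and whiskers give the mean and SD of 6 libraries. All CON ratios of Ncapd2 to Ncapd3 lie above 0 and those of the other pairs below it, and the CON and PEA ratios are apart for Ncaph/Ncaph2 and Esco2/Esco1.

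In PEA the mean log2 ratios were 1.26 ± 0.19 for Ncapd2 to Ncapd3, -0.35 ± 0.18 for Ncapg to Ncapg2, -2.26 ± 0.20 for Ncaph to Ncaph2, -0.67 ± 0.10 for Smc2 to Smc4 and -0.90 ± 0.24 for Esco2 to Esco1. All 6 PEA libraries lay above all CON libraries for the ratios of Ncaph to Ncaph2 and of Esco2 to Esco1, while 3, 1 and 2 did so for Ncapd2 to Ncapd3, Ncapg to Ncapg2 and Smc2 to Smc4. Since Ncaph2 and Esco1 differed little, the first of these separations repeat the differences of Ncaph and Esco2 given above. Esco2 was also a reason for the choice of the group, so the ratios in PEA are a description only. The order within each pair was the same as in CON, and Esco2 remained below Esco1, by 1.87-fold. Summed per kb, the 3 condensin I subunits came to 180.2 ± 32.9 in CON (137 to 237) and 277 ± 29.8 in PEA (241 to 312), and the 3 condensin II subunits to 659 ± 31.0 and 689 ± 9.50. Condensin I thus held 21.3 ± 2.56% of the sum in CON and 28.6 ± 2.34% in PEA, with no overlap between the groups. Ncaph2 made up 89.6% of the condensin II sum in CON and 85.2% in PEA. With both kleisins left out, the share of condensin I was 58.1 ± 2.78% and 60.2 ± 1.05%, and the groups overlapped.

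The rest of the machinery of sister chromatid cohesion and mitotic chromosome structure was described with 6 lists of 49 genes, all tested in the same fit. These lists were put together with earlier results of these libraries known. Of the 49, 21 rose in edgeR and 0 fell. DESeq2 also called 21, without Pttg1 and with Ddx11, and limma-voom called 22, with Ddx11 added. Neither called a gene lower, although 2 (Csnk2a1 and Ppp2ca) were lower at an unadjusted p below 0.05 in edgeR. The edgeR count stands beside 6.31% of all genes higher and 11.0% in either direction, and several of the 49 (Mki67, Top2a, Cdk1, Ccnb1 and Pcna) are also among the genes of cycling cells given above.

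The cohesin ring itself differed little. Of its 5 genes 0 passed the edgeR test, 0 had an unadjusted p below 0.05, and 0 were called by DESeq2 or limma-voom. The median log2 fold change was -0.01, from -0.10 in Stag2 to 0.07 in Rad21. Without CON replicate 2, Stag2 was called lower (log2 fold change -0.15, edgeR adjusted p = 0.0242). The SMC5/6 complex, the third SMC complex, which acts in DNA repair, also had 0 of 8 genes called by edgeR, DESeq2 or limma-voom and 0 at an unadjusted p below 0.05, with a median of -0.02 and a range from -0.10 to 0.12.

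Of 12 genes that load, release or protect cohesin, 6 rose and the median log2 fold change was 0.34. The loader subunits Nipbl and Mau2, the release factor Wapl, its partners Pds5a and Pds5b, and the deacetylase Hdac8 had log2 fold changes from -0.03 to 0.10 and did not pass the test. Sgo2a, a protector of centromeric cohesin, had values of 88.8, 161 and 182 normalized counts in CON and of 275, 295 and 394 in PEA, and rose by a log2 fold change of 1.04 (SE 0.14, edgeR adjusted p = 5.29e-04). Cdca5 (sororin), which stabilises cohesin once ESCO enzymes have acetylated it, ran from 116 through 156 to 264 in CON and from 292 through 338 to 387 in PEA. Like Esco2 it was higher in every PEA library, by 0.99 (SE 0.15, adjusted p = 0.00115). Espl1 (separase), the protease that cuts cohesin, rose by 1.10 (SE 0.18, adjusted p = 0.00160), also without overlap. Sgo1 rose by 0.58 (SE 0.16, adjusted p = 0.0272), but was not called without CON replicate 1, CON replicate 6, PEA replicate 3 or PEA replicate 6. The calls of Pttg1 (securin) and Haspin, at adjusted p of 0.0451 and 0.0425, were lost in 11 and 10 of the 12 fits that left out 1 library, and 3 of the 12 genes were called without CON replicate 6, PEA replicate 3 or PEA replicate 6.

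Among 9 genes that establish cohesion at the replication fork, 4 rose, with a median log2 fold change of 0.31. Clspn, which carries the replication checkpoint signal, had values of 183, 252 and 323 in CON and of 337, 421 and 469.5 in PEA, and its log2 fold change was 0.72 (SE 0.12, edgeR adjusted p = 0.00176). Chtf18 and Dscc1, subunits of the clamp loader that serves cohesion, rose by 0.51 (SE 0.11, adjusted p = 0.00923) and 0.73 (SE 0.18, adjusted p = 0.0180), and the fork protection gene Timeless by 0.36 (SE 0.09, adjusted p = 0.0160). Pcna, the sliding clamp to which ESCO2 binds, stood at 2029 ± 179.5 normalized counts in CON against 2290.1 ± 159 in PEA and did not pass the test (log2 fold change 0.18, adjusted p = 0.0636), but was called without CON replicate 3 (0.23, adjusted p = 0.00960). Ddx11, a helicase of the fork, had a log2 fold change of 0.31 (adjusted p = 0.0534) and was called by DESeq2, by limma-voom, and in edgeR without CON replicate 2 or CON replicate 3.

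Of 9 regulators and kinases of condensin, 6 rose and the median log2 fold change was 0.58. They included Cdk1, which phosphorylates condensin at the entry into mitosis, at 763, 962 and 1453 normalized counts in CON and 1350.0, 1492 and 1614 in PEA (log2 fold change 0.58, SE 0.11, edgeR adjusted p = 0.00425). Its upper CON value overlapped the PEA group. Aurkb and Incenp, members of the chromosomal passenger complex, rose by 0.87 (SE 0.15, adjusted p = 0.00185) and by 0.69 (SE 0.11, adjusted p = 0.00145), both without overlap. The broadly expressed kinase and phosphatase subunits Csnk2a1 and Ppp2ca and the condensin II inhibitor Mcph1 did not pass the test, with log2 fold changes of -0.18, -0.11 and 0.09. Csnk2a1 was called lower without CON replicate 2 (log2 fold change -0.22, adjusted p = 0.0291).

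Of 6 genes of the mitotic chromosome scaffold and periphery, 5 rose and the median log2 fold change was 0.79. Top2a, the mitotic topoisomerase II that shares the chromosome axis with condensin, had values of 686, 1120.0 and 1754 in CON and of 2070.2, 2172 and 2449.8 in PEA, and rose by 0.95 (SE 0.14, edgeR adjusted p = 9.37e-04). Top2b, the form also made in non-dividing cells, had 2416 ± 158 and 2344 ± 167 and was not called (log2 fold change -0.04). Kif22 and Kif4, chromosome-bound kinesins, rose by 0.81 (SE 0.13, adjusted p = 0.00165) and 0.77 (SE 0.14, adjusted p = 0.00336), and Mki67, the surface protein of mitotic chromosomes, by 1.03 (SE 0.24, adjusted p = 0.0149). Smchd1, an SMC-related protein of the inactive X chromosome, rose by 0.21 (SE 0.06, adjusted p = 0.0353), and its call was lost in 6 of the 12 fits that left out 1 library.

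**Figure D4:**
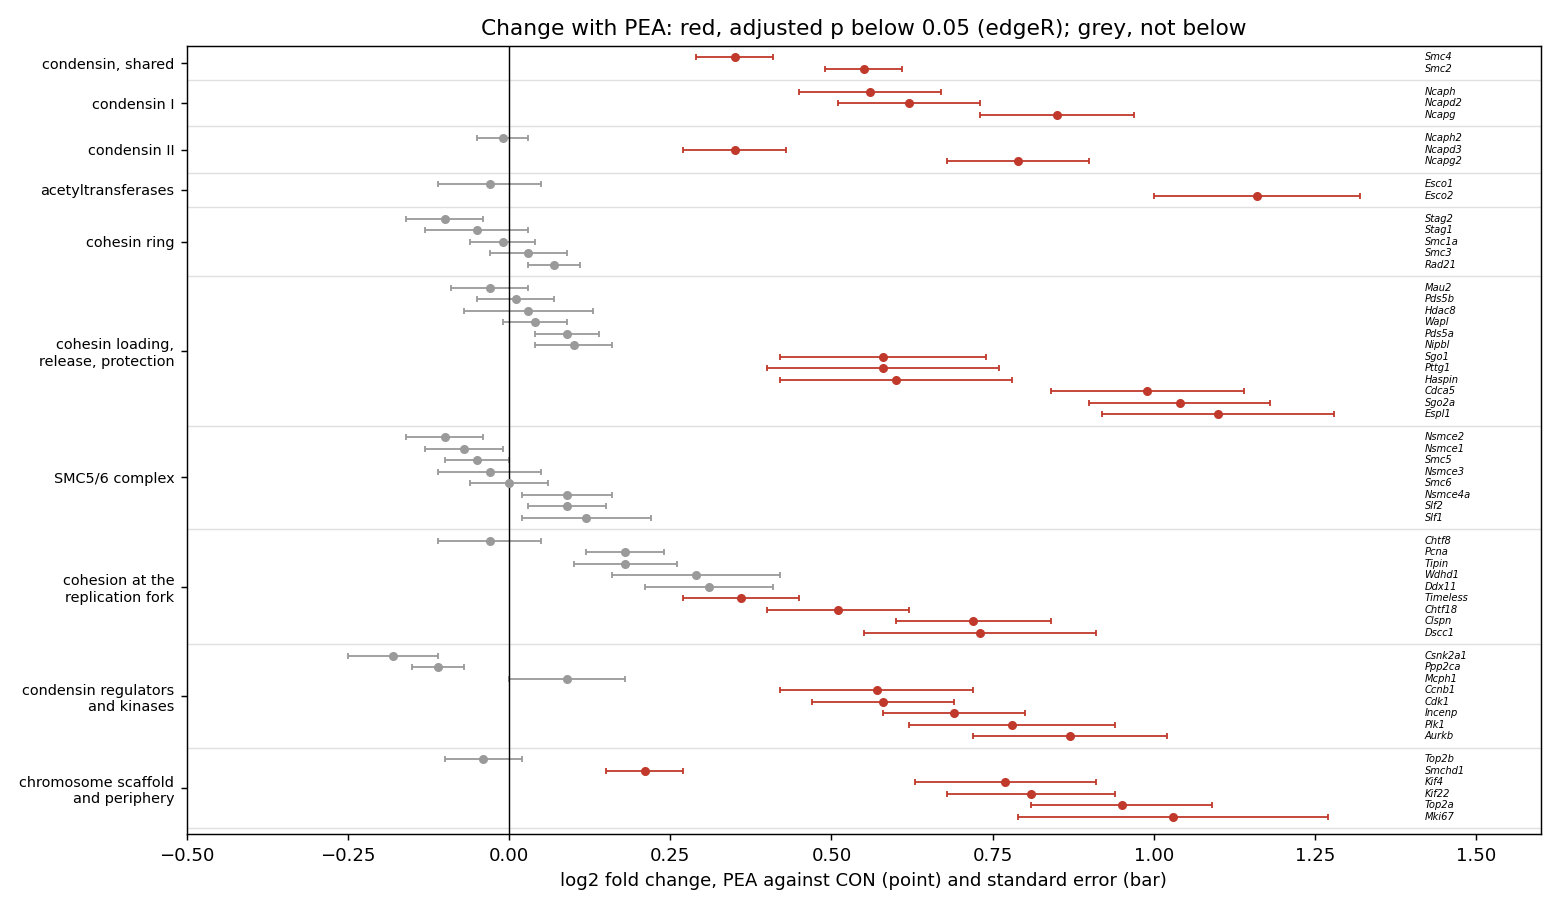
Log2 fold change of PEA against CON (horizontal axis, points) with its standard error (bars) for the 10 condensin and acetyltransferase genes and the genes of the 6 lists (1 gene not drawn), grouped by role and ordered within each group; red marks an adjusted p below 0.05 in edgeR and grey the rest. Ncaph2, Esco1, the cohesin ring and the SMC5/6 complex lie around 0, and Esco2 lies farthest to the right at 1.16.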

How the data were processed

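RNA-seq libraries of C2C12 myotubes (6 CON and 6 PEA, grouped by the treatment labels) were analysed from gene tables. The authors aligned paired-end reads to mm39 with STAR 4.4.1d, and used Partek Flow to assign them to Ensembl genes. The first table deposited by the authors gives the estimated count per gene and library, not normalized. The other deposited table gives these counts after division by a single factor for each library, a signal called normalized counts here. The labels hold 13 entries, since PEA replicate 2 has an entry for a top-up run as well. Both entries name 1 set of values, counted as 1 library, and whether it holds both runs is not given in the sources used here. Protein-coding genes with identifiers above the last one in the tables (2240 of 21770) were not used here.

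Estimated counts were rounded to whole numbers, which 69.7% of those above 0 were not (tolerance 1e-06). They were tested with edgeR 4.0.16 (quasi-likelihood test, TMM factors from 0.988 to 1.02, default filter on low counts, 13142 genes) in R 4.3.3, and p-values adjusted by the Benjamini-Hochberg method were held against 0.05. The SE is the log2 fold change over the square root of the F statistic. Library totals had a median of 18420606, the biological coefficient of variation was 0.106, and errors cover counting and the spread between libraries only. DESeq2 1.42.0 and limma 3.58.1 (log2 of normalized counts with a pseudocount of 1, or voom) served as alternatives, with other size factors, other filters, the replicate number as a block and each library left out. Log2 CPM used a prior count of 2. Levels per kb used the exons of GENCODE for GRCm39, and a two-sided exact sign-flip permutation test within CON. Tables and figures were made in Python 3.11.15 (pandas 2.3.3, numpy 2.4.6, matplotlib 3.10.9). The tests were tested on simulated data. Promoters came from RefSeq (GRCm38.p6), a build whose coordinates differ from those of the genes.

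The 10 genes and all lists were chosen with earlier results of these data known. The text names all 10, of each list up to 4 called genes with the smallest p (every called gene where 5 or fewer were called), and the 5 genes most like Smc2 and Esco2. Other list genes and markers are named to account for a count, after their values were seen. The values of 1 list gene are not reported here, although the list counts include it.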

Additional observations from a re-analysis of the deposited data

Results flagged for a closer look

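In 30 sets of 6 libraries (each of the 10 genes and each of the 5 ratios, in CON and in PEA), 2 held a library whose gap to the nearest of the others exceeded Dixon's limit for the range, where chance gives about 1 in 20. In Ncapd2, CON replicate 2 had 798 normalized counts, while the other CON libraries had 467 to 586. In the log2 ratio of Ncaph to Ncaph2 per kb, CON replicate 3 had -3.31, while the others lay from -2.86 to -2.60. Both libraries were among the extremes for other condensin genes as well, CON replicate 2 as the highest CON library in 7 of the 10 genes and CON replicate 3 as the lowest in 5. No other value of the 10 genes or the ratios was marked in this way.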

How the results depend on the processing

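The count of 8 genes called among the 10 was the same under all 19 alternative fits, 7 with another tool, normalization, filter, unit or block and 12 with 1 library left out. The log2 fold change of Esco2 ranged from 1.07 to 1.22 and that of Smc2 from 0.52 to 0.59. Over all genes 1452 were called, 778 when PEA replicate 6 was left out and 2203 when CON replicate 2 was. DESeq2 called 1915 and limma-voom 1628. Genes called in the 6 lists numbered 21, from 16 to 24 with 1 library left out and 21 to 22 otherwise. The cohesin ring had 0 to 1, the cohesin loading and protection list 3 to 6, the fork list 4 to 6, the regulators 5 to 7 and the scaffold 4 to 5 with 1 library left out. All PEA libraries lay above all CON libraries in 5 of the 10 genes, and in 8 without CON replicate 2.

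Same-numbered libraries were not found to be paired, with a correlation of their deviations from -0.083 to 0.065, and no CON library correlated best with the PEA library of its own number. With the replicate block 8 of the 10 genes and 21 of the list genes passed, Csnk2a1 being called lower there (22 in all), and 1570 genes passed overall.

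With 1 CON library left out the smallest possible exact p of a paired level is 0.0625, so none could pass. The log2 ratios then ranged from 0.91 to 1.04 for Ncapd2 to Ncapd3, from -0.49 to -0.39 for Ncapg to Ncapg2, from -2.88 to -2.74 for Ncaph to Ncaph2, from -0.92 to -0.83 for Smc2 to Smc4 and from -2.20 to -1.94 for Esco2 to Esco1. With the longest transcript as gene length or all 12 libraries, the 5 ratios kept their sign and their side of the threshold. The estimated and normalized counts give the same ratio within a library by construction. Depth limits Esco2 most, at 69.0 to 355 estimated counts per library.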
